A study of Mus musculus with 9 samples.

Results

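Imprinted genes are transcribed mainly or only from the chromosome inherited from 1 parent, and 38 of them were followed here through mouse brain development. They were taken from a list of symbols, matched to the Ensembl identifiers of the count table through GENCODE M21, and grouped by imprinted cluster and by the parental allele known to be expressed. All 38 were found among the 45706 identifiers of the table. All 38 passed the filter on low counts, which left 17971 genes to test. By common knowledge of the mouse, 21 were grouped as expressed from the paternal allele and 15 from the maternal allele. The other 2 (Grb10 and Gnas) were grouped as expressed from different alleles in different tissues or transcripts. This grouping gives 1 label per gene and does not cover differences between cell types or stages. They fall into 17 clusters.

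Imprinting is set in the germ line by DNA methylation at control regions, and a cluster often pairs protein-coding genes of 1 allele with a noncoding RNA of the other. Many paternally expressed genes promote growth of the fetus, and several maternally expressed genes restrain it. In the brain, imprinted genes are known for roles in neuronal survival, the hypothalamus, feeding and behaviour. The counts used here sum the reads of both alleles, so they give the level of each gene and not its allelic balance.

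The libraries were made from untreated C57BL6/J mice at 3 ages, the embryonic stages E9.5 and E14.5 (named for the day of gestation) and the adult P60 (named for the day after birth), with 3 libraries for each. At E9.5 heads were severed behind the fourth ventricle and trimmed to the neuroectoderm, at E14.5 brains were freed of their meninges, and at P60 the brain came from perfused adults. All were whole tissue with no genetic alteration or sorting given in the labels. The comparisons ask how levels differed between consecutive stages, E14.5 against E9.5 and P60 against E14.5, and over the whole interval.

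Library totals lay between 30481975 and 35619093 counts. Levels are CPM (counts divided by the TMM-adjusted library total, times 1000000), given for replicates 1, 2 and 3 of a stage in that order or as mean ± SD with n = 3. A gene was called at an adjusted p under 0.05 in edgeR's quasi-likelihood test, with Benjamini-Hochberg adjustment over all 17971 genes. Nothing in the labels says whether replicates came from different animals, so the p-values cover the spread of these samples alone. Neuron markers summed to 182 to 207 CPM at E9.5, 3748 to 4399 CPM at E14.5, and 5103 to 5868 CPM at P60. Of these 5 markers, Snap25, Syt1 and Rbfox3 were higher at P60 than at E14.5, and Tubb3 and Map2 lower. The first E9.5 library held 319.9 CPM of heart and muscle markers, against 5.2 and 5.65 CPM in the other E9.5 libraries. Other non-neural markers also differed between the embryonic stages. Surface ectoderm markers summed to 5.17 to 8.74 CPM at E14.5, against 194 to 294 CPM at E9.5, with 6 of 6 called lower. Erythroid markers summed to 999 to 1963 CPM at E14.5, against 4254 to 5769.5 CPM at E9.5, with 4 of 8 higher and 4 lower. The embryonic globin Hbb-y had 202 ± 71.1 CPM at E14.5, against 1991 ± 323 CPM at E9.5. Hbb-bs went the other way, with 452 ± 201 CPM at E14.5, against 6.3 ± 2.06 CPM at E9.5. Markers of leptomeninges and mesenchyme summed to 523 to 983 CPM at E14.5, against 692 to 854 CPM at E9.5, with 3 of 8 higher and 3 lower. Among these Twist1 had 2.51 ± 0.662 CPM at E14.5, against 54.9 ± 6.54 CPM at E9.5. Dcn went the other way, with 40.5 ± 5.9 CPM at E14.5, against 1.04 ± 0.404 CPM at E9.5. The part of these cells in the falls of H19, Igf2, Mest, Grb10, Dlk1 and the other members lower at E14.5 was not tested. Libraries of every stage differed in how deviations from the stage mean ran with exon length across 17889 genes, which are not independent replicates. Spearman's rho was -0.36, 0.27 and 0.31 in the E9.5 libraries, -0.45, 0.43 and 0.39 in those of E14.5, and -0.29, 0.52 and -0.47 in those of P60. The first E14.5 library was the lowest of its stage for 19 of the 38 members, beside 45.1% of all genes, and the highest for 15 members. No marker of the 12 cell type lists was at 0 counts in all libraries of a stage. In whole tissue, fewer cells of a type and less RNA per cell cannot be told apart.

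From E9.5 to E14.5 the imprinted genes moved both ways. At E14.5, 14 members were higher and 15 lower than at E9.5, which is 76.3% called, beside 64.6% of all genes tested (34% higher and 30.7% lower). Their median log2 fold change was 0.10, and that of all genes was 0.03. At P60 they were mostly lower: 12 were higher and 22 lower than at E14.5, which is 89.5% called, beside 76.1% of all genes (36.7% higher and 39.4% lower). The median of the members was -1.16 there, and that of all genes was -0.06. Against E9.5, P60 had 14 higher and 21 lower, or 92.1% called beside 82.6% of all genes (42% higher and 40.6% lower), with medians of -1.42 for the members and 0.05 for all genes. The share called lower at P60 was 57.9% against E14.5, beside 39.4% of all genes, and 55.3% against E9.5, beside 40.6%. Members that changed at least 2-fold numbered 23, or 60.5% beside 43.5% of all genes, for E14.5 against E9.5, 26, or 68.4% beside 56.8%, for P60 against E14.5, and 32, or 84.2% beside 67.6%, for P60 against E9.5. The libraries of the compared stages did not overlap for 16 higher and 16 lower members at E14.5 against E9.5 (72.1% of all genes in either direction), for 11 and 22 at P60 against E14.5 (76.3%), and for 15 and 21 at P60 against E9.5 (84.9%). Without the first E9.5 library the E14.5 counts against E9.5 were 14 higher and 13 lower. Without the first E14.5 library they were 14 and 15, and those of P60 against E14.5 were 11 and 22.

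**Figure D1:**
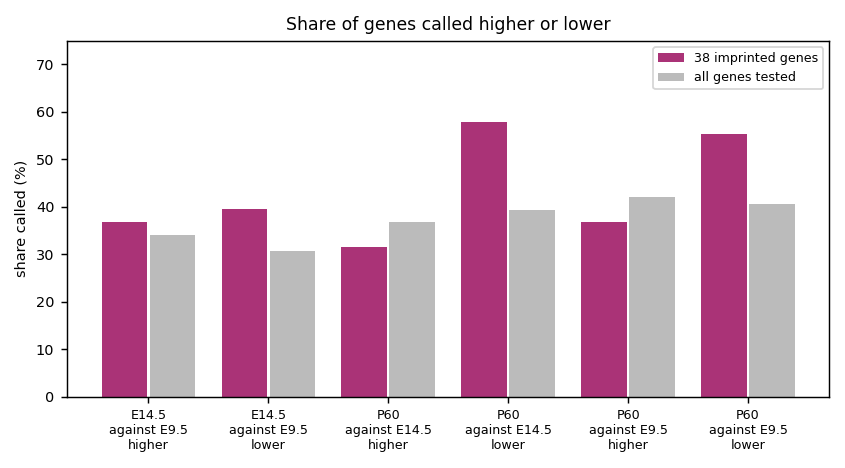
Share of genes called higher or lower (y axis, percent) in each of the 3 comparisons (x axis), for the 38 imprinted genes and for all 17971 genes tested. The largest gap stands at P60 against E14.5, where 57.9% of the imprinted genes and 39.4% of all genes were lower.

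Paternally and maternally expressed members both went in both directions. At E14.5 against E9.5, 9 of 21 paternally expressed genes were higher and 9 lower, and 4 of 15 maternally expressed genes were higher and 5 lower. That is 85.7% and 60% called, beside 64.6% of all genes tested (34% higher and 30.7% lower). At P60 against E14.5, 7 paternally expressed genes were higher and 13 lower, and 4 maternally expressed genes were higher and 8 lower. This makes 95.2% and 80% called, beside 76.1% of all genes (36.7% higher and 39.4% lower). The difference between the alleles was not tested. Of all counts in a library, the 38 members together took between 0.872 and 0.938% in the E9.5 libraries, 0.921 to 0.935% in those of E14.5, and 0.475 to 0.49% in those of P60. The share at P60 was lower than in every library of the earlier stages. These sums weigh the most abundant members most. In the first E14.5 library Nnat alone had 132500 of the 299621 member counts. In the first E9.5 library H19, Grb10 and Mest had 54046, 44015 and 40927 of 271350.

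**Figure D2:**
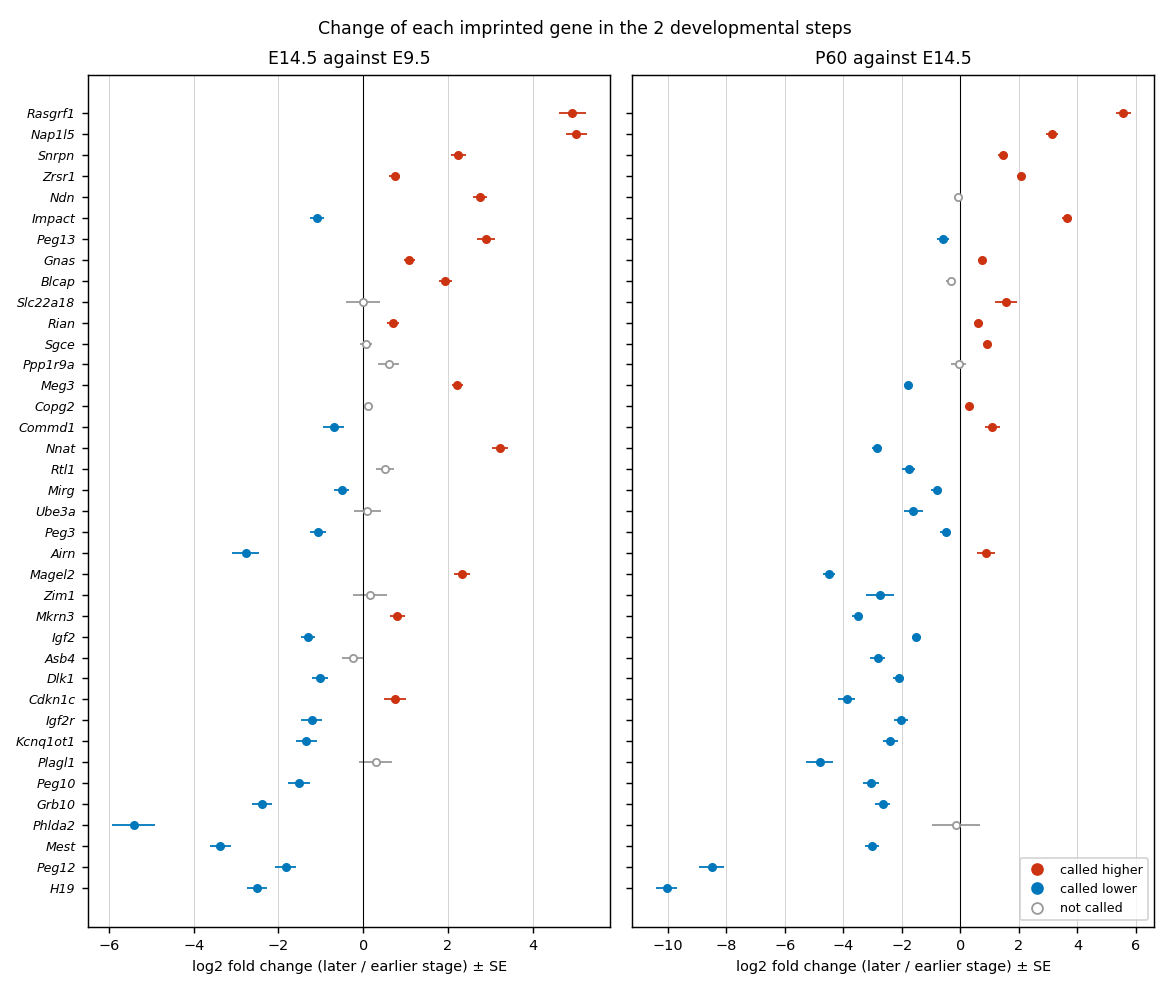
Fitted log2 fold change ± SE (x axis) of each imprinted gene (rows, ordered by P60 against E9.5) at E14.5 against E9.5 (left) and at P60 against E14.5 (right), with called genes filled. Rasgrf1 and Nap1l5 were higher in both panels, and H19, Peg12 and Mest lower in both.

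Read over both steps, the most common course was lower at E14.5 and lower again at P60. It held 11 members, which is 28.9% of the members beside 14.6% of all genes tested: H19, Igf2, Igf2r, Mest, Peg3, Peg10, Dlk1, Mirg, Grb10, Kcnq1ot1 and Peg12. A rise in both steps held 6 members (Snrpn, Rian, Zrsr1, Gnas, Nap1l5 and Rasgrf1), or 15.8% beside 14.8% of all genes. A rise at E14.5 followed by a fall at P60 held another 6 (Meg3, Magel2, Cdkn1c, Nnat, Mkrn3 and Peg13), or 15.8% beside 11.5%. Both steps share the E14.5 libraries, so these counts describe the courses and were not tested. By mean level, 14 members (36.8%, beside 36.5% of all genes) were highest at E9.5, 13 (34.2% beside 23.1%) at E14.5 and 11 (28.9% beside 40.4%) at P60.

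**Figure D3:**
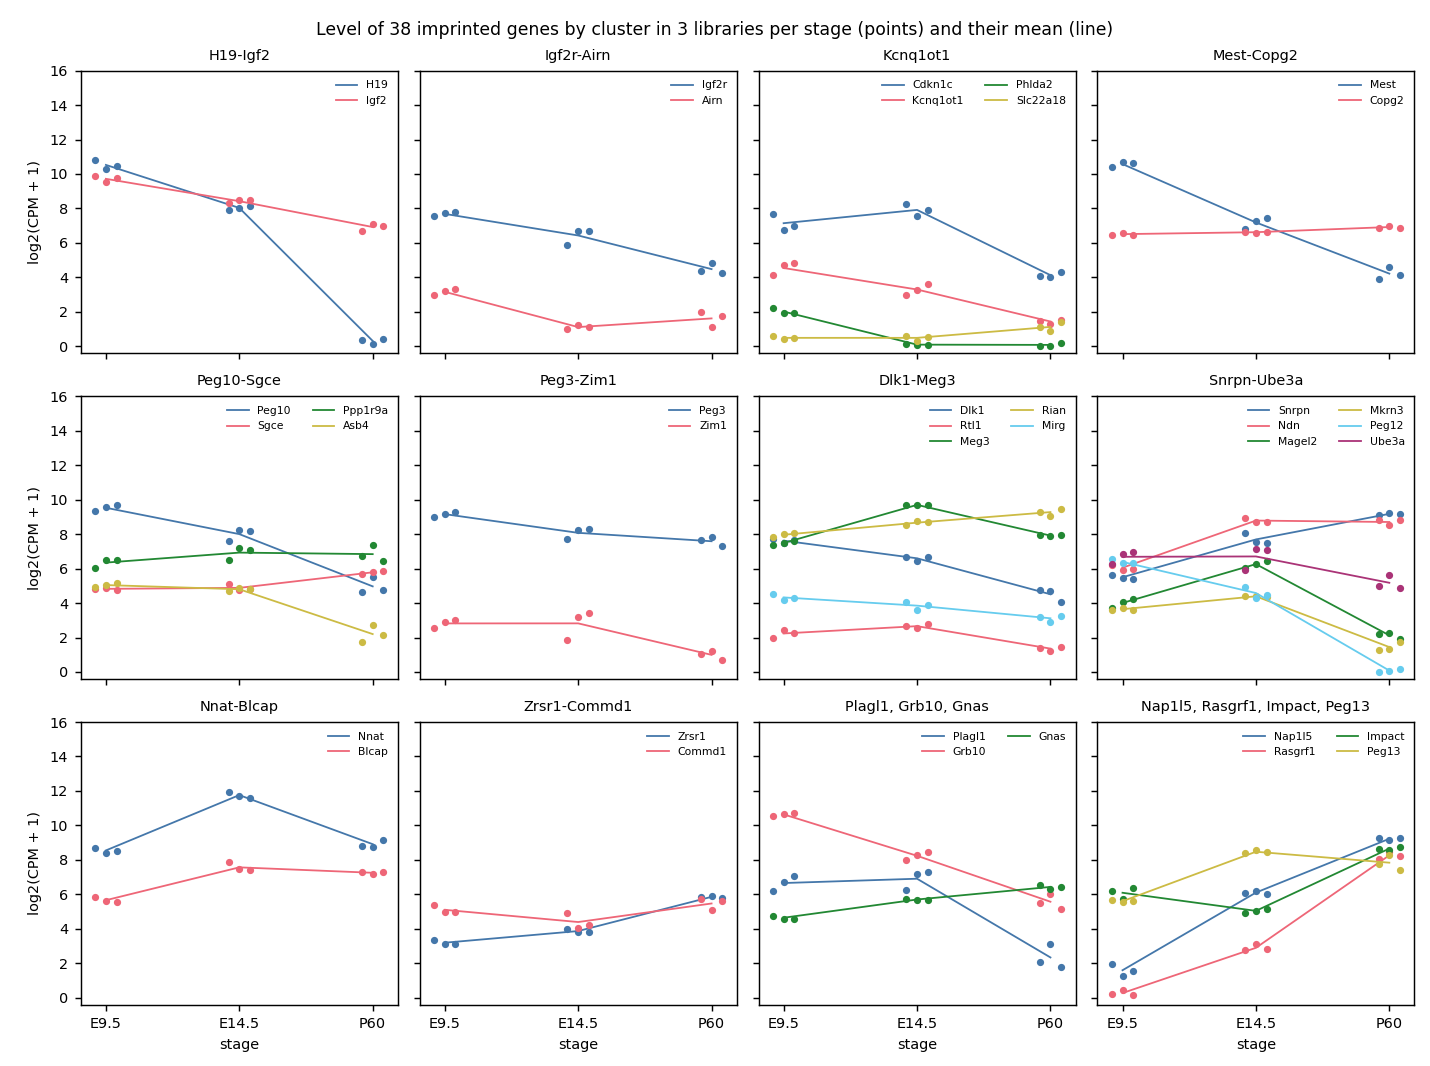
Level of each imprinted gene as log2(CPM + 1) (y axis) by stage (x axis), in panels by cluster, with 1 point per library and a line through the stage means. H19, Mest and Grb10 average 1493, 1530.0 and 1595 CPM at E9.5, and Nnat averages 3480.3 CPM at E14.5.

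The courses differ between genes that have the same short motif in a promoter window. ZFP57, a zinc finger protein that protects imprints, binds the methylated letters TGCCGC. Promoter windows from RefSeq (GRCm38.p6), 250 bases before to 50 after a gene's start, matched 31 of the 38 members by symbol. TGCCGC or its reverse complement GCGGCA lay in a window of 11 of these 31 members (35.5%), beside 13.1% of 27025 genes, and in 12 of 47 member windows (25.5%), beside 11.6% of 32851. The member windows also held more CpG dinucleotides, with a median of 13 per 300 bases beside 7 for all promoters. TGCCGC itself holds a CpG. The shares were not corrected for CpG content or for genes with several, partly overlapping windows. Matches to YY1 (ATGGCGG or CCGCCAT) were found in 4 of the 31 members (12.9% beside 4.69% of genes), and matches to PLAGL1 (GGGGCCCC) in 3 (9.68% beside 1.25%). None of the 3 motifs contains another. The 250 bases before a start are shown for 4 members with the ZFP57 motif and different courses, written 5′ to 3′ on the strand of the gene, with TGCCGC or GCGGCA in capitals. Mest fell in both steps (chr6:30737800-30738049, plus strand), Plagl1 fell at P60 (chr10:13090582-13090831, plus strand), Meg3 rose and then fell (chr12:109540746-109540995, plus strand), and Nap1l5 rose in both steps (chr6:58907127-58907376, minus strand).
Mest: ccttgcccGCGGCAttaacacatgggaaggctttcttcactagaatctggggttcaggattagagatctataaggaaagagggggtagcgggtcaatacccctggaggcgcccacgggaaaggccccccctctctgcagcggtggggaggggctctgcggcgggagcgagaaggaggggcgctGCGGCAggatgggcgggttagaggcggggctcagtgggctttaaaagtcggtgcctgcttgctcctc
Plagl1: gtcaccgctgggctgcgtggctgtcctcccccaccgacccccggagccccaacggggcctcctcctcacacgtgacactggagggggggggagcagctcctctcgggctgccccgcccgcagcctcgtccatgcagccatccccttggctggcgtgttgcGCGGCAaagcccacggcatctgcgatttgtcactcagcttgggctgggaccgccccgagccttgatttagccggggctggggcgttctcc
Meg3: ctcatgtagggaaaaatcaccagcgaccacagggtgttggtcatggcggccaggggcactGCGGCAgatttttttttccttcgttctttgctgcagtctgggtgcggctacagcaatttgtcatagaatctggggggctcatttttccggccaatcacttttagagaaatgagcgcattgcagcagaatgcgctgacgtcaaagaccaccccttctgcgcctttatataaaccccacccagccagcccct
Nap1l5: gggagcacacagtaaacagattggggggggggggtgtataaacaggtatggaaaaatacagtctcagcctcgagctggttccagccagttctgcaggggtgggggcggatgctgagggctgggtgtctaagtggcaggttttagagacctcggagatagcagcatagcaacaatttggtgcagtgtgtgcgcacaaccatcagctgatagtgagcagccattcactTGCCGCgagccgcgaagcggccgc
A match is a description of these letters and not a bound site. A window each of Commd1, Copg2, Grb10, Igf2, Nnat, Snrpn and Zim1 also held the motif. In Commd1, Grb10, Igf2 and Nnat it lay after the start, and in Snrpn across it. Other windows of Mest, Meg3, Commd1, Grb10, Igf2 and Snrpn held no match.

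The H19 and Igf2 cluster lies on distal chromosome 7 and joins a maternally expressed noncoding RNA to a paternally expressed growth factor. H19 (ENSMUSG00000000031, GRCm38 chr7:142575529-142578143) had 1808, 1253 and 1418 CPM at E9.5, 241, 258 and 285 CPM at E14.5, and 0.3, 0.0881 and 0.353 CPM at P60. It was the most abundant member per kilobase of exon at E9.5, with 607 CPM per kb, and its stages did not overlap. It was 5.71-fold lower at E14.5 than at E9.5 (log2 -2.51 ± 0.23 SE, adjusted p = 4e-06). At P60 it had only 9, 3 and 12 counts, and was lower than at E14.5 by a fitted log2 of -10.04 ± 0.36 (adjusted p = 5.7e-09). The first E9.5 library, with its heart and muscle markers, had the highest H19 level. Without that library H19 at E14.5 against E9.5 was -2.34 on the log2 scale (adjusted p = 2.3e-05).

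Igf2 (ENSMUSG00000048583, chr7:142650766-142666816) had 939, 730.1 and 872 CPM at E9.5, 315, 354 and 359 CPM at E14.5, and 104, 136 and 123 CPM at P60. Each stage lay below the one before it, with no overlap. Igf2 was 2.47-fold lower at E14.5 than at E9.5 (adjusted p = 3.1e-05) and 2.83-fold lower at P60 than at E14.5 (adjusted p = 7.9e-06). In the adult brain Igf2 is known from choroid plexus and leptomeninges. The 6 choroid plexus markers summed to 2006, 3769 and 4654 CPM at P60, against 775, 505 and 500.3 CPM at E14.5. Most of this sum was Ttr, with 3377 ± 1325 CPM at P60, against 494 ± 156 CPM at E14.5. In this list 4 markers were higher at P60, 1 was not called, and 1 was lower (Otx2, 11.7 ± 2.06 against 54.9 ± 4.7 CPM). The 8 markers of leptomeninges and mesenchyme summed to 106, 92.3 and 110.4 CPM at P60, against 523, 720.2 and 983 CPM at E14.5. Of these, 7 were lower and 1 higher. The part of both tissues in the Igf2 result was not tested. Igf2 shares 98 exonic bases with the antisense gene Igf2os, which averaged 14.2 CPM at E9.5, 2.3 CPM at E14.5 and 0.293 CPM at P60, and counts without strand cannot tell them apart.

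The receptor that carries IGF2 to the lysosome, Igf2r, is known to be expressed from the maternal allele in many tissues. The noncoding RNA Airn, read from the other strand of the same locus on chromosome 17, is known to silence the paternal copy in those tissues. Which alleles were read in these brain samples was not measured. Igf2r had 187, 209 and 219.7 CPM at E9.5, 57.3, 104 and 104 CPM at E14.5, and 19.9, 27.1 and 17.9 CPM at P60. The stages did not overlap, and the first E14.5 library was the low one of its stage. Igf2r was 2.33-fold lower at E14.5 than at E9.5 (adjusted p = 0.00095) and 4.07-fold lower at P60 than at E14.5 (adjusted p = 2.1e-05). Airn was scarce, with 7.99 ± 1.1 CPM at E9.5, 1.17 ± 0.203 CPM at E14.5 and 2.17 ± 0.923 CPM at P60. It was 6.8-fold lower at E14.5 than at E9.5 (adjusted p = 2.2e-05). Its rise at P60 against E14.5 was called (log2 0.88 ± 0.32, adjusted p = 0.027), but the libraries of the stages overlapped. Without the first or the third E14.5 library the rise was 0.75 (adjusted p = 0.078) or 0.88 (0.063), and without the first or the third P60 library 0.57 (0.14) or 0.81 (0.074).

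Mest and Grb10 also fell in both steps. Mest, an embryonic enzyme of the alpha/beta hydrolase fold (ENSMUSG00000051855, chr6:30723547-30748465), had 1369, 1654 and 1567 CPM at E9.5, 112, 156 and 174 CPM at E14.5, and 14, 23.7 and 16.4 CPM at P60. It was 84.7-fold lower at P60 than at E9.5 (log2 -6.40 ± 0.28, adjusted p = 4.6e-09). Mest shares 912 exonic bases with Copg2 on the other strand. Grb10, an adaptor that dampens insulin and IGF receptor signalling, had 1472, 1626 and 1685 CPM at E9.5, 249.8, 304 and 356 CPM at E14.5, and 44.6, 64.6 and 34.7 CPM at P60. It was 5.26-fold lower at E14.5 than at E9.5 (adjusted p = 5.8e-06) and 6.32-fold lower at P60 than at E14.5 (adjusted p = 2.1e-06). Neither gene overlapped between stages. Grb10 is known to be read from the maternal allele in most tissues and from the paternal allele in neurons, from different promoters, and gene-level counts do not separate these transcripts.

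Peg10 and Peg3 were also lower at both later stages. Peg10, a retrotransposon-derived gene known for its need in the placenta, had 654, 757 and 815 CPM at E9.5, 194, 298 and 288 CPM at E14.5, and 23.9, 45.4 and 25.6 CPM at P60. It was 2.85-fold lower at E14.5 than at E9.5 (adjusted p = 0.0004) and 8.22-fold lower at P60 than at E14.5 (adjusted p = 2.4e-06). Peg3, a zinc finger protein, had 514, 574 and 633 CPM at E9.5, 209, 300.5 and 309 CPM at E14.5, and 198, 224 and 158 CPM at P60. It was 2.1-fold lower at E14.5 than at E9.5 (adjusted p = 0.00056). P60 and E14.5 overlapped, and the fall of Peg3 at P60 against E14.5 was near the threshold (log2 -0.50 ± 0.19, adjusted p = 0.034). It was not called without the second or the third E14.5 library (log2 -0.43 and -0.40, adjusted p = 0.11 and 0.12) or without the first or the third P60 library (-0.53 and -0.38, adjusted p = 0.072 and 0.12). DESeq2 gave an adjusted p of 0.06. In edgeR the adjusted p was 0.076 with median of ratios scaling and 0.11 with upper quartile scaling. It was 0.06 with no filter on low counts and 0.083 with 2 stages only.

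Plagl1, a zinc finger transcription factor of growth-related imprinted genes, had a different course (ENSMUSG00000019817, chr10:13060504-13131694). It had 72.6, 103 and 132 CPM at E9.5, 74.3, 145 and 155 CPM at E14.5, and 3.27, 7.57 and 2.5 CPM at P60. The embryonic stages overlapped and were not called different (log2 0.29 ± 0.39, adjusted p = 0.54). P60 lay below both, 28-fold lower than E14.5 (adjusted p = 3.9e-06). The low embryonic libraries were the first of each stage.

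The Kcnq1ot1 cluster, next on distal chromosome 7, is silenced on the paternal chromosome by the long antisense RNA Kcnq1ot1. Kcnq1ot1 had 16.5, 24.8 and 27.1 CPM at E9.5, 6.87, 8.61 and 11.5 CPM at E14.5, and 1.8, 1.44 and 1.91 CPM at P60, with no overlap. It was 2.54-fold lower at E14.5 than at E9.5 (adjusted p = 0.0005) and 5.23-fold lower at P60 than at E14.5 (adjusted p = 1e-05). Its single exon of 93092 bases gives it the lowest level per length of all members at P60, 0.0184 CPM per kb.

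Cdkn1c, the cell cycle inhibitor p57 that marks progenitors leaving the cycle (ENSMUSG00000037664, chr7:143458339-143461050), had 205, 107 and 126 CPM at E9.5, 308, 188 and 239.9 CPM at E14.5, and 15.6, 15.5 and 18.5 CPM at P60. P60 lay far below both embryonic stages, 14.8-fold lower than E14.5 (log2 -3.89 ± 0.28, adjusted p = 4.7e-07). The embryonic libraries overlapped, because the first E9.5 library exceeded the second E14.5 library. The rise at E14.5 against E9.5 was 1.68-fold (log2 0.75 ± 0.25, adjusted p = 0.022). Without the first E9.5 library, the one with heart and muscle markers, it was 1.09 on the log2 scale (adjusted p = 0.0017). The call was lost without the second or the third E9.5 library (log2 0.57 and 0.65, adjusted p = 0.091 and 0.083) and without the first E14.5 library (0.56, adjusted p = 0.076).

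The other genes of this cluster were scarce. Phlda2, which limits placental growth, had 107, 86 and 86 counts in the E9.5 libraries. It had 3, 2 and 2 counts in the E14.5 libraries, and 0, 1 and 5 in those of P60. In CPM this was 0.0679 ± 0.0195 at E14.5, against 3.06 ± 0.455 at E9.5, a fitted 42.9-fold fall (adjusted p = 4.8e-06). P60 and E14.5 were both at a few counts, and no difference was detectable between them. Slc22a18, an organic cation transporter, stayed at 0.405 ± 0.0873 CPM at E9.5 and 0.408 ± 0.138 CPM at E14.5, and reached 1.2 ± 0.4 CPM at P60. These rest on 15, 10 and 12 counts at E9.5, on 17, 9 and 16 at E14.5, and on 35, 28 and 55 at P60. Its rise at P60 against E14.5 was 2.94-fold (adjusted p = 0.0023).

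The Dlk1-Meg3 cluster on chromosome 12 pairs the paternally expressed Dlk1, a transmembrane relative of the Notch ligands, with maternally expressed noncoding RNAs. Dlk1 had 210.0, 181 and 198 CPM at E9.5, 102, 84.6 and 102 CPM at E14.5, and 25.8, 25.3 and 15.8 CPM at P60. It was lower at each later stage with no overlap, 2.04-fold at E14.5 against E9.5 (adjusted p = 0.00061) and 4.31-fold at P60 against E14.5 (adjusted p = 2.9e-06). Meg3 (ENSMUSG00000021268, chr12:109541001-109571726) had 166, 179.7 and 189.7 CPM at E9.5, 828, 826 and 836 CPM at E14.5, and 242, 234 and 245 CPM at P60. It peaked at E14.5, 4.65-fold above E9.5 (log2 2.22 ± 0.13, adjusted p = 1.3e-07), and P60 was 3.45-fold below E14.5 (adjusted p = 4.1e-07). P60 stayed above E9.5, by 1.35-fold (adjusted p = 0.0073).

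Rian and Mirg, read from the same strand beyond Meg3, did not share its peak. Rian, host of small nucleolar RNAs, had 224, 259 and 265 CPM at E9.5, 366, 429 and 424 CPM at E14.5, and 635, 539 and 698 CPM at P60. It was higher at each later stage, 1.63-fold at E14.5 against E9.5 (adjusted p = 0.0018) and 1.54-fold at P60 against E14.5 (adjusted p = 0.0031), with no overlap. Mirg, host of microRNAs, averaged 19.2 ± 2.35 CPM at E9.5, 13.5 ± 2.29 CPM at E14.5 and 7.71 ± 1.05 CPM at P60. Its fall at P60 against E14.5 was 1.75-fold (adjusted p = 0.0017). Its fall at E14.5 against E9.5 (log2 -0.51 ± 0.18, adjusted p = 0.026) was not called without the first or the third E9.5 library (-0.39 and -0.53, adjusted p = 0.1 and 0.056) or without the second or the third E14.5 library (-0.38 and -0.50, adjusted p = 0.12 and 0.067). Rtl1, a paternally expressed gene of retrotransposon origin, averaged 3.75 ± 0.743 CPM at E9.5, 5.33 ± 0.576 CPM at E14.5 and 1.57 ± 0.24 CPM at P60. It was 3.4-fold lower at P60 than at E14.5 (adjusted p = 3e-05). At E14.5 against E9.5 Rtl1 was not called (log2 0.51, adjusted p = 0.055), but was without the second E9.5 library (0.64, adjusted p = 0.046) or the second P60 library (0.52, adjusted p = 0.04).

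The Snrpn-Ube3a cluster on chromosome 7 corresponds to the human region of the Prader-Willi and Angelman syndromes. Of its 5 paternally expressed genes, Snrpn, Ndn, Magel2 and Mkrn3 were higher at E14.5 than at E9.5 and Peg12 was lower. Snrpn, a spliceosome protein of neurons, had 48.4, 43.5 and 41 CPM at E9.5, 269, 185 and 175 CPM at E14.5, and 552, 602 and 582 CPM at P60. It was 4.73-fold higher at E14.5 than at E9.5 (adjusted p = 1.5e-06) and 2.76-fold higher at P60 than at E14.5 (adjusted p = 2.3e-05), with no overlap. Snrpn shares 589 exonic bases on its own strand with Gm38393, so its counts are uncertain to that extent. Ndn (necdin), known for neuronal survival, had 74.1, 59.9 and 62.8 CPM at E9.5, 488, 417 and 421 CPM at E14.5, and 445, 365 and 444 CPM at P60. It was 6.74-fold higher at E14.5 than at E9.5. P60 overlapped E14.5 (log2 -0.08 ± 0.15, adjusted p = 0.63), and the sign of that small value changed under other scalings.

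Magel2 and Mkrn3 rose at E14.5 and then fell below their first level. Magel2, a regulator of ubiquitin ligases known from the hypothalamus, had 12.1, 16 and 17.6 CPM at E9.5, 65.7, 76.5 and 86 CPM at E14.5, and 3.6, 3.87 and 2.71 CPM at P60. It was 4.99-fold higher at E14.5 than at E9.5 (adjusted p = 1.7e-06) and 22.4-fold lower at P60 than at E14.5 (log2 -4.49 ± 0.22, adjusted p = 3e-08). Mkrn3, a ubiquitin ligase tied to the timing of puberty in humans, had 11.2, 12 and 11.3 CPM at E9.5, 20.5, 19.9 and 19.6 CPM at E14.5, and 1.43, 1.47 and 2.36 CPM at P60. It was 1.74-fold higher at E14.5 than at E9.5 (adjusted p = 0.0026) and 11.4-fold lower at P60 than at E14.5 (adjusted p = 1.1e-07). Both genes kept their 3 stages apart.

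Peg12, an intronless relative of the Frat genes of Wnt signalling, took the opposite course in the first step. It had 93.5, 77.9 and 78.1 CPM at E9.5 and 29.5, 19 and 21.5 CPM at E14.5, and at P60 only 0, 1 and 5 counts. It was 3.56-fold lower at E14.5 than at E9.5 (adjusted p = 7.7e-05). P60 was lower than E14.5 by a fitted log2 of -8.49 ± 0.43 (adjusted p = 4.5e-08), which ranged from -10.23 to -7.99 when single libraries were left out. Ube3a, the maternally expressed ubiquitin ligase lost in Angelman syndrome, had 76, 114 and 122 CPM at E9.5, 60, 138 and 133 CPM at E14.5, and 31.2, 48.5 and 28.7 CPM at P60. The embryonic stages overlapped and were not called different (log2 0.09 ± 0.32, adjusted p = 0.83). P60 was 3.05-fold lower than E14.5 (adjusted p = 0.00099). Ube3a is long, and its low embryonic libraries were the first of each stage. It shares 1803 exonic bases with the antisense Snhg14, which averaged 22.2 CPM at E9.5, 67.7 CPM at E14.5 and 19.7 CPM at P60, and reads of the pair cannot be told apart.

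Nnat (neuronatin, ENSMUSG00000067786, chr2:157560078-157562522), a small membrane protein of the endoplasmic reticulum in differentiating neurons, reached the highest level per kilobase of any member. It had 419, 339 and 364 CPM at E9.5, 3992, 3308 and 3141 CPM at E14.5, and 453, 426 and 572 CPM at P60. At E14.5 this was 1903 CPM per kb, and E14.5 stood apart from both other stages. Nnat was 9.3-fold higher at E14.5 than at E9.5 (log2 3.22 ± 0.19, adjusted p = 1.2e-07) and 7.19-fold lower at P60 than at E14.5 (adjusted p = 1.9e-07). P60 lay above E9.5 in every library, but this difference was not called (log2 0.37 ± 0.17, adjusted p = 0.063). It was called without the first E9.5 library (0.46, adjusted p = 0.044), the first E14.5 library (0.37, adjusted p = 0.034) or the second P60 library (0.46, adjusted p = 0.031), and DESeq2 gave 0.037.

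Blcap, the host gene whose intron holds Nnat, had 55.5, 47.7 and 45.5 CPM at E9.5, 229, 173 and 168 CPM at E14.5, and 154, 146 and 153 CPM at P60. It was 3.84-fold higher at E14.5 than at E9.5 (adjusted p = 1.6e-06). P60 lay below E14.5 in every library, but the difference was not called (log2 -0.33 ± 0.15, adjusted p = 0.068). It was called without the third E14.5 library (-0.42, adjusted p = 0.049), and with the replicate number as a block (-0.32, adjusted p = 0.049).

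Peg13, a noncoding RNA inside an intron of Trappc9, had 49.8, 45.4 and 47.2 CPM at E9.5, 342, 377 and 343 CPM at E14.5, and 217, 316 and 171 CPM at P60. It was 7.46-fold higher at E14.5 than at E9.5 (adjusted p = 7.2e-07). Its fall at P60 against E14.5 was small (log2 -0.59 ± 0.20, adjusted p = 0.019). This call was lost without the second E14.5 library (-0.55, adjusted p = 0.054) and without the first or the third P60 library (-0.55 and -0.42, adjusted p = 0.064 and 0.053).

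At P60 against E9.5, Rasgrf1 (log2 10.51 ± 0.34) and Nap1l5 (log2 8.17 ± 0.27) had the largest rises of the 38 members. Rasgrf1, a calcium-dependent activator of Ras in neurons (ENSMUSG00000032356, chr9:89909908-90026977), had 0.167, 0.365 and 0.0957 CPM at E9.5, 5.76, 7.52 and 6.12 CPM at E14.5, and 269, 353 and 302 CPM at P60. The E9.5 values rest on 5, 11 and 3 counts. Rasgrf1 was 30.5-fold higher at E14.5 than at E9.5 (log2 4.93 ± 0.32, adjusted p = 2.6e-07) and 47.6-fold higher at P60 than at E14.5 (log2 5.57 ± 0.25, adjusted p = 1.8e-08). Nap1l5, a nucleosome assembly protein relative (ENSMUSG00000055430, chr6:58905233-58907076), had 2.88, 1.39 and 1.95 CPM at E9.5, 67.5, 71.1 and 64.1 CPM at E14.5, and 609.6, 558 and 624 CPM at P60. It was 32.6-fold higher at E14.5 than at E9.5 (adjusted p = 4e-08) and 8.84-fold higher at P60 than at E14.5 (adjusted p = 2.6e-07). At P60 it was the most abundant member per kilobase, with 324 CPM per kb, followed by Snrpn with 268 CPM per kb and Nnat with 265 CPM per kb. Neither Rasgrf1 nor Nap1l5 overlapped between stages.

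Gnas and Zrsr1 also rose in both steps. Gnas, the stimulatory G protein alpha subunit with allele-specific promoters, had 25.8, 23.1 and 22.9 CPM at E9.5, 51.1, 50.8 and 50.7 CPM at E14.5, and 92.1, 79.5 and 84.1 CPM at P60. It was 2.13-fold higher at E14.5 than at E9.5 (adjusted p = 1.9e-05) and 1.68-fold higher at P60 than at E14.5 (adjusted p = 0.00021). Its exons overlap the antisense Nespas (988 bases) and Gm20721 (1469 bases), so its counts are uncertain. Zrsr1, a splicing factor relative whose gene lies inside Commd1, averaged 8.14 ± 0.721 CPM at E9.5, 13.6 ± 1.05 CPM at E14.5 and 56.8 ± 2.7 CPM at P60. It was 1.67-fold higher at E14.5 than at E9.5 (adjusted p = 0.00059) and 4.19-fold higher at P60 than at E14.5 (adjusted p = 2.2e-07).

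Impact and Commd1 had their lowest level at E14.5. Impact, an inhibitor of the stress kinase GCN2 that is abundant in neurons, had 71.1, 53 and 79.9 CPM at E9.5, 29, 32 and 34.8 CPM at E14.5, and 393, 379.6 and 434 CPM at P60. It was 2.13-fold lower at E14.5 than at E9.5 (adjusted p = 0.00019) and 12.6-fold higher at P60 than at E14.5 (log2 3.65 ± 0.18, adjusted p = 4e-08), with no overlap. Commd1, a copper and NF-kB regulator, had 40, 30.4 and 30.2 CPM at E9.5, 29.1, 15.7 and 17.3 CPM at E14.5, and 51.1, 33.1 and 47.6 CPM at P60. It was 2.12-fold higher at P60 than at E14.5 (adjusted p = 0.0024). Its fall at E14.5 against E9.5 (log2 -0.70 ± 0.25, adjusted p = 0.031) was not called without the first E9.5 library (-0.54, adjusted p = 0.11) or without the second or the third E14.5 library (-0.52 and -0.57, adjusted p = 0.12 and 0.11). P60 against E9.5 was not called for Commd1 (log2 0.39, adjusted p = 0.17), but was with the replicate number as a block (0.38, adjusted p = 0.043). Commd1 shares 412 exonic bases with Zrsr1 on the other strand.

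Copg2 and Sgce changed less than 2-fold in each comparison. Copg2, a coat protein of Golgi vesicles next to Mest, averaged 90.1 ± 3.53 CPM at E9.5, 97.5 ± 1.39 CPM at E14.5 and 120.0 ± 5.87 CPM at P60. Its 1.23-fold rise at P60 against E14.5 (log2 0.30 ± 0.12, adjusted p = 0.034) was not called without any 1 of 6 libraries. Without the first, the second or the third E9.5 library it was 0.28, 0.29 and 0.29 (adjusted p = 0.064, 0.066 and 0.068). Without the second or the third E14.5 library it was 0.28 and 0.30 (0.11 and 0.086), and without the first P60 library 0.31 (0.07). The call was also lost with library totals as scaling (0.16, adjusted p = 0.22) and with no filter on low counts (0.34, adjusted p = 0.057). Copg2 shares 912 exonic bases with Mest on the other strand. Sgce, epsilon-sarcoglycan, averaged 27.3 ± 0.936 CPM at E9.5, 28.6 ± 3.79 CPM at E14.5 and 54.2 ± 3.59 CPM at P60, and was 1.89-fold higher at P60 than at E14.5 (adjusted p = 0.0001).

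Ppp1r9a (neurabin, an actin-binding protein of synapses) had 65.3, 90.8 and 87.8 CPM at E9.5, 91.2, 144 and 134 CPM at E14.5, and 105, 162 and 86 CPM at P60. It was the only member called in neither step. Every E14.5 library lay above every E9.5 library, with a log2 of 0.60 ± 0.25 (adjusted p = 0.059), and the fit with the replicate number as a block gave 0.59 (adjusted p = 0.015). Ppp1r9a was also called in that step without the first E14.5 library (0.78, adjusted p = 0.02) or the second or the third P60 library (0.60 and 0.62, adjusted p = 0.023 and 0.039). Calls came too with upper quartile scaling (adjusted p = 0.048), library totals (0.04), no filter on low counts (0.026) and 2 stages only (0.037). P60 against E9.5 gave a log2 of 0.54 (adjusted p = 0.07), and 0.52 (adjusted p = 0.022) with the block. It was called without the first E14.5 library (0.54, adjusted p = 0.047) and without the third P60 library (0.73, adjusted p = 0.024). Upper quartile scaling (adjusted p = 0.021), no filter on low counts (0.024) and 2 stages only (0.031) also gave this call. Asb4, a SOCS box protein, averaged 32.1 ± 2.83 CPM at E9.5, 26.9 ± 2.15 CPM at E14.5 and 3.77 ± 1.6 CPM at P60, and was 7.12-fold lower at P60 than at E14.5 (adjusted p = 2.8e-06). Zim1, a zinc finger neighbour of Peg3, had 4.78, 6.6 and 6.99 CPM at E9.5, 2.59, 8.19 and 9.69 CPM at E14.5, and 1.07, 1.35 and 0.618 CPM at P60. It was 6.73-fold lower at P60 than at E14.5 (adjusted p = 0.00027), and its first E14.5 library was the low one.

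Neighbouring or functionally paired members often parted. For 12 pairs the log2 ratio of (CPM + 1) was taken within each library, and the stages were compared through their F statistic, with an exact permutation over all 1680 ways to assign libraries to stages. The smallest p this test can give is 0.0036, and p-values were adjusted over the 12 pairs. The added 1 CPM weighs on the ratio where a gene is near or under 1 CPM, as H19 and Zim1 were at P60. The ratio differed between stages for 11 of the 12 pairs. Pairs of other genes were not tested. Of all genes tested, 64.6% were called at E14.5 against E9.5, 76.1% at P60 against E14.5 and 82.6% at P60 against E9.5. The count of pairs is thus not shown to be particular to imprinted genes. H19 over Igf2 had mean log2 ratios of 0.81 ± 0.12 at E9.5, -0.39 ± 0.06 at E14.5 and -6.61 ± 0.33 at P60 (SD, n = 3, exact permutation test, adjusted p = 0.0054). This ratio was lower in every E14.5 library than in any E9.5 library, and lower again in every P60 library. At P60 its size rests on the pseudocount, with means of -8.54 ± 0.83 with 0.1 CPM and -4.58 ± 0.21 with 5 CPM in place of 1 CPM. Meg3 over Dlk1 had -0.14 ± 0.18 at E9.5, 3.10 ± 0.15 at E14.5 and 3.41 ± 0.40 at P60 (exact permutation test, adjusted p = 0.013). The later stages overlapped there.

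Rian over Meg3 went both ways, with 0.48 ± 0.05 at E9.5, -1.03 ± 0.12 at E14.5 and 1.36 ± 0.15 at P60 (exact permutation test, adjusted p = 0.0054). Ube3a over Snrpn, grouped under opposite alleles of a single cluster, had 1.19 ± 0.48 at E9.5, -0.99 ± 1.0 at E14.5 and -4.0 ± 0.35 at P60 (adjusted p = 0.0054, exact permutation test). The first E14.5 library stood at -2.15 in this ratio, against -0.42 and -0.39 in the others. Mest over Copg2 had 4.07 ± 0.11, 0.57 ± 0.32 and -2.70 ± 0.30 at E9.5, E14.5 and P60, and Peg10 over Sgce had 4.71 ± 0.20, 3.12 ± 0.52 and -0.81 ± 0.49. Magel2 over Ndn had -2.04 ± 0.41, -2.53 ± 0.31 and -6.58 ± 0.34, and Nnat over Blcap had 2.89 ± 0.09, 4.19 ± 0.07 and 1.66 ± 0.20. Zrsr1 over Commd1 had -1.91 ± 0.11, -0.53 ± 0.36 and 0.39 ± 0.38. By the exact permutation test, Magel2 over Ndn had an adjusted p of 0.013 and the other 4 of these pairs 0.0054 each. Mest and Copg2 share 912 exonic bases on opposite strands, and Zrsr1 and Commd1 share 412. The counts within each of these pairs may thus not be fully separate.

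Zim1 over Peg3 had mean log2 ratios of -6.34 ± 0.12 at E9.5, -5.25 ± 0.54 at E14.5 and -6.60 ± 0.02 at P60 (exact permutation test, adjusted p = 0.0054), and without the first P60 library the adjusted p was 0.051. With 0.1 CPM in place of 1 CPM these means were -6.54, -5.48 and -7.49, and with 5 CPM they were -5.70, -4.59 and -5.03, so that P60 lay below E9.5 with 0.1 and 1 CPM and above it with 5 CPM. Cdkn1c over Kcnq1ot1 had 2.60 ± 0.84, 4.62 ± 0.58 and 2.69 ± 0.11 (exact permutation test, adjusted p = 0.039). That call was lost without the first, the second or the third E14.5 library (exact permutation test, adjusted p = 0.071, 0.078 and 0.066) and without the first P60 library (0.055). Its P60 mean was 3.20 with 0.1 CPM added, against 2.65 at E9.5, and 1.68 with 5 CPM added, against 2.41 at E9.5, so that their order turned with 5 CPM. Igf2 over Igf2r, the ligand and its clearing receptor, had 2.03 ± 0.27, 1.99 ± 0.39 and 2.44 ± 0.23, with no difference called between stages (exact permutation test, adjusted p = 0.25). Without the first E14.5 library its adjusted p was 0.047 by the same test. Both genes fell in both steps.

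**Figure D4:**
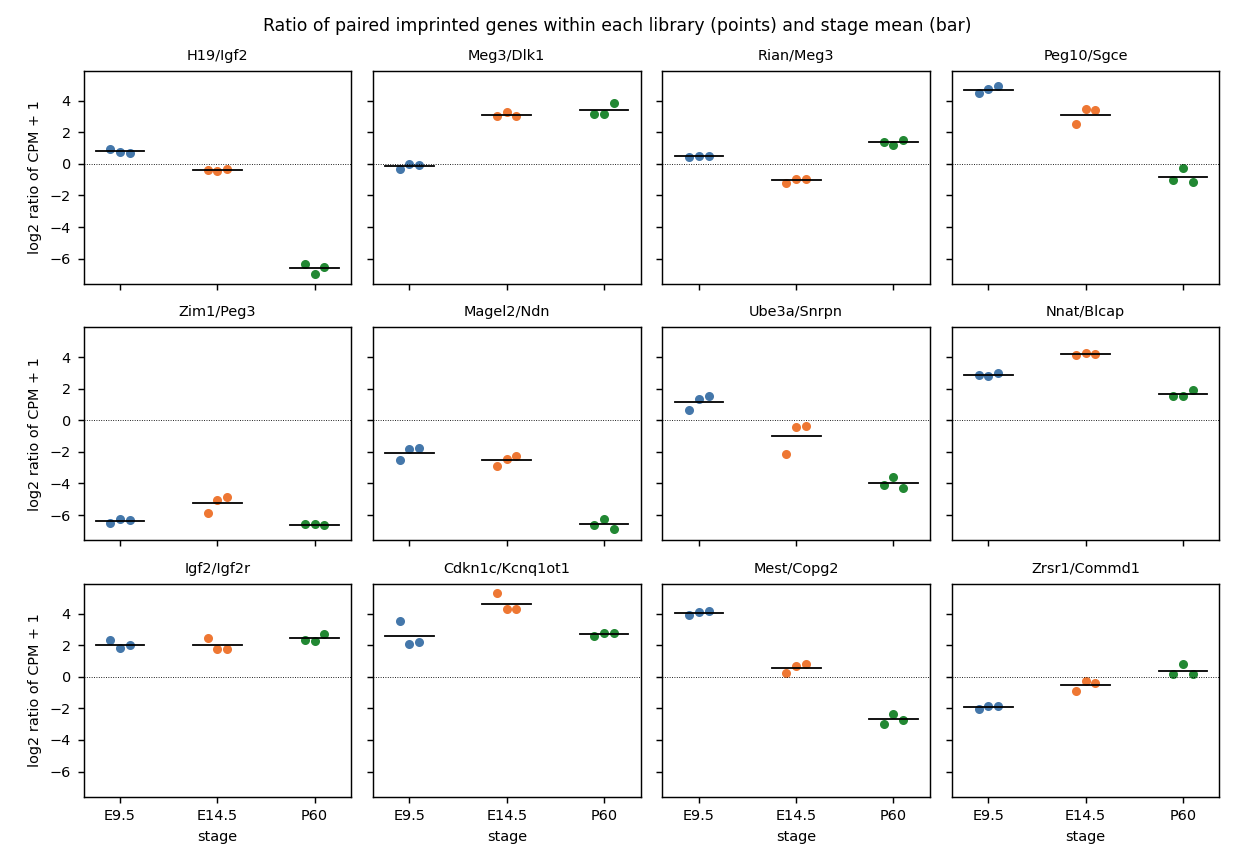
Log2 ratio of (CPM + 1) between paired imprinted genes (y axis) in each library (points) and as stage mean (bar), by stage (x axis). With 1 CPM added, H19 over Igf2 averages 0.81 at E9.5 and -6.61 at P60, whereas Igf2 over Igf2r stays between means of 1.99 and 2.44.

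Imprinted genes outside the 38 were counted for context. Of 40 further genes reported as imprinted, 36 were tested. At E14.5 against E9.5, 19 were higher and 5 lower, beside 34% and 30.7% of all genes. At P60 against E14.5, 10 were higher and 12 lower, beside 36.7% and 39.4% of all genes. Usp29, a Peg3 neighbour, was higher at E14.5 (77.9 ± 12.3 CPM) than at E9.5 (4.64 ± 0.368 CPM, adjusted p = 4.7e-08), and so were Th, tyrosine hydroxylase (log2 3.85), and Calcr, the calcitonin receptor (log2 3.70). The amino acid transporter Slc38a4 was lower at E14.5 (4.72 ± 1.03 CPM) than at E9.5 (90.1 ± 9.08 CPM, adjusted p = 4.5e-08), as were the Argonaute gene Ago2 (log2 -1.45) and Phactr2 (log2 -0.96). At P60 against E14.5, Qpct, Pon2 and the tetraspanin Cd81 were higher (log2 2.57, 2.12 and 2.07), and Ago2, Calcr and Sfmbt2 were lower (log2 -2.65, -1.94 and -1.81).

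IGF signalling genes other than the members were mostly lower at P60. Of 18 listed genes, 15 were tested, of which 3 were higher and 6 lower at E14.5 against E9.5, and 1 higher and 11 lower at P60 against E14.5. Of all genes tested, 30.7% and 39.4% were lower in these steps. The 3 Igf2bp genes, whose proteins bind Igf2 and other mRNAs, were lower in both steps. Igf2bp1 had 711 ± 37.5 CPM at E9.5, 53.6 ± 7.21 CPM at E14.5 and 0.0111 ± 0.0192 CPM at P60. Igf2bp2 had 442 ± 28.2, 71.3 ± 7.88 and 0.335 ± 0.042 CPM, and Igf2bp3 had 219 ± 35.5, 31.7 ± 9.97 and 0.237 ± 0.156 CPM, in the same order. Igfbp7 and the insulin receptor Insr were higher at E14.5 than at E9.5 (log2 2.59 and 0.92). Igfbp6, an IGF-binding protein with preference for IGF2, was higher at P60 (48.5 ± 6.03 CPM) than at E14.5 (0.696 ± 0.181 CPM, adjusted p = 6.1e-09).

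Genes known to set, protect or erase imprints, the Tet genes among them, were mostly lower at each later stage. Of 18 listed, 16 were tested, of which 2 were higher and 9 lower at E14.5 against E9.5, and 1 higher and 15 lower at P60 against E14.5. Of all genes tested, 30.7% and 39.4% were lower in these steps. The 1 rise at P60 was in a gene under 1 CPM at both stages. Zfp57, whose binding letters stand in capitals in the promoters above, had 49.8 ± 3.11 CPM at E9.5, 193 ± 7.75 CPM at E14.5 and 2.62 ± 0.513 CPM at P60. It was higher at E14.5 than at E9.5 (log2 1.95 ± 0.15, adjusted p = 9.1e-07) and lower at P60 than at E14.5 (log2 -6.19 ± 0.18, adjusted p = 3.5e-09). Tet2, a methylcytosine dioxygenase, was the other gene higher at E14.5 than at E9.5 (log2 1.04, adjusted p = 0.0019). Where the higher of both stages averaged 5 CPM or more, the largest falls at E14.5 against E9.5 were in the methyltransferase Dnmt3b (log2 -3.77), the maintenance factor Uhrf1 (log2 -2.74) and the remodeller Hells (log2 -2.63). At P60 against E14.5, Uhrf1 (log2 -6.80) and Tet3 (log2 -4.91) stood beside Zfp57. Uhrf1 and Hells are known from dividing cells. Neural progenitor markers summed to 104, 129.6 and 107 CPM at P60, against 1949, 1336 and 1434 CPM at E14.5, and their part in these results was not tested.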

How the data were processed

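Poly(A)-primed, PCR-amplified cDNA libraries from whole tissue of 3 stages, 3 per stage, were sequenced. The submitters' processing notes name Trimmomatic 0.36, STAR 2.5.2b and the genome build mm10. The authors deposited raw counts per gene, whole numbers with no normalization. The counting program, annotation and strand setting are not given in the sources used here. The kit does not mark strand, so overlapping genes on opposite strands can share counts, and PCR copies carry no molecular identifier. Of 45706 identifiers, 45143 matched GENCODE M21 (GRCm38).

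The whole table was fitted with edgeR 4.0.16 in R 4.3.3, with all 9 libraries in 1 robust quasi-likelihood fit, stage as the only factor, TMM scaling and the filterByExpr filter. The 3 contrasts were two-sided with Benjamini-Hochberg adjustment. SEs are approximate, obtained by dividing the size of a log2 fold change by the root of its F statistic. The biological coefficient of variation was 19.9%, so spread between libraries, not depth, limits the precision of abundant genes. The scripts were tested on simulated data. Members and lists were chosen with earlier results of these data known. All 38 members are named. From each list of other genes, at most 3 called rises and 3 called falls per consecutive step were named, if their libraries did not overlap and the higher stage averaged at least 5 CPM.

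Stages share replicate numbers. Deviations of same-numbered libraries correlated at 0.37, 0.141 and 0.209 at E14.5 against E9.5. The second E14.5 library correlated at 0.202 with the third E9.5 library, and the third E14.5 library at 0.185 with the second of E9.5. For the second E14.5 library the same number was thus not the closest, so the block is an alternative fit and not a known pairing. The numbers come from the sample titles, which do not say what they mark. Alternatives were other scalings, filters and pseudocounts, DESeq2 1.42.0, 2 stages only, a replicate block, and leaving out each library.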

Additional observations from a re-analysis of the deposited data

How the results depend on the processing

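Of 114 member results (38 members in 3 contrasts), 94 kept their call and direction under all 17 alternatives and 20 did not. No count of calls moved by more than 1.5 times. With the replicate block, 15 members were higher and 15 lower at E14.5 against E9.5, 12 and 23 at P60 against E14.5, and 16 and 21 at P60 against E9.5. Same-numbered libraries correlated at 0.171, 0.337 and -0.224 at P60 against E14.5, and at 0.0957, 0.114 and -0.1 at P60 against E9.5. The third P60 library correlated at 0.34 with the first E14.5 library. What the numbers mark cannot be told from these correlations, and pairing is not shown in any comparison. Beyond the calls gained by Ppp1r9a, Blcap and Commd1 given above, the block changed no call.

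Signs turned only for small values that were never called, and the cause was not tested. At E14.5 against E9.5, Sgce (0.07) was -0.02 with median of ratios scaling. Slc22a18 (0.0) was -0.08 with median of ratios, -0.0 with upper quartile scaling and with 2 stages only, -0.01 with the replicate block and -0.06 with DESeq2. At P60 against E14.5, with median of ratios, upper quartile and DESeq2, Ppp1r9a (-0.06) was 0.03, 0.09 and 0.02, and Ndn (-0.08) was 0.02, 0.09 and 0.0. Phlda2 (-0.14) was 0.02 with upper quartile scaling. Leaving out single libraries gave ranges of -0.1 to 0.39 for Ube3a, -0.18 to 0.27 for Slc22a18, -0.04 to 0.14 for Sgce and -0.17 to 0.55 for Zim1 at E14.5 against E9.5. The ranges were -1.89 to 0.36 for Phlda2, -0.37 to 0.11 for Ppp1r9a and -0.14 to 0.01 for Ndn at P60 against E14.5.

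Upper quartile scaling moved the median of all genes at P60 against E14.5 to 0.1, and at P60 against E9.5 to 0.2, while library totals gave -0.2 and 0.0. Member medians moved with them, to -0.99 and -1.27, and to -1.29 and -1.47. With library totals, E14.5 against E9.5 had 16 members higher and 14 lower. Calls with log2 changes under 1 (Peg3, Copg2, Airn, Peg13, Mirg, Commd1 and Cdkn1c) were those lost in some alternatives. Levels under about 1 CPM (Phlda2, Peg12 and H19 at P60, Phlda2 at E14.5, Rasgrf1 at E9.5, and Slc22a18 at both embryonic stages) rest on few counts.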
